A study of Mus musculus with 6 samples.

Results

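The 7 genes Pax6, Nkx6-1, Nkx6-2, Nkx2-2, Dbx1, Dbx2 and Foxa2 encode the transcription factors that mark progenitor domains of the ventral neural tube. They were chosen by symbol from the 24002 genes of the RNA-seq table, and all 7 were found. In the GRCm38.p6 assembly Pax6, Nkx2-2 and Foxa2 lie on chromosome 2, Nkx6-1 on chromosome 5, Nkx6-2 and Dbx1 on chromosome 7 and Dbx2 on chromosome 15. Expression was measured as FPKM, which scales fragments by transcript length and library size, in 3 RNA-seq replicates of the mouse embryonic stem cell line R1. Before differentiation the cells received LIF (1000 U/ml), which maintains self-renewal, and 15% serum replacement. Hanging drops over 48 h gave embryoid bodies, which were then kept in retinoic acid up to day 6. The labels give its dose as 0.5 mM, a unit that is uncertain since micromolar doses are usual. Every sample shares this line, this agent and this time, and 3 further samples were used for ATAC-seq, whose regions are not used here. The data therefore give levels in 1 condition and no change from another state, and embryoid bodies are mixed cultures without the spatial order of a neural tube.

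In the embryo, Sonic hedgehog from the notochord and floor plate grades the ventral neural tube. It represses one class of progenitor factors, including Pax6, Dbx1 and Dbx2, and induces another, including Nkx6-1 and Nkx2-2, and pairs of factors from the opposing classes repress each other where their domains meet. From dorsal to ventral the domains are p0, p1, p2, pMN, p3 and the floor plate, and they give rise to V0, V1 and V2 interneurons, motor neurons, V3 interneurons and, at the midline, floor plate cells. Retinoic acid acts on the same tissue from the neighbouring mesoderm and promotes spinal identity.

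The members covered a wide range of levels, with Nkx6-1 highest and Dbx1 lowest. At 1 FPKM or more in every replicate, called expressed here, stood 5 of the 7, namely Nkx6-1, Nkx6-2, Pax6, Foxa2 and Nkx2-2, and 3 of these reached 10 FPKM in every replicate. Of all genes in the table, 50.7% were expressed in this sense, at 1 FPKM or more in every replicate. The share of all genes at 10 FPKM was not counted. The median of the members' mean levels was 6.47 FPKM, against 1.31 FPKM over all genes and 10.01 FPKM over the 12171 expressed genes. The order of the means was Nkx6-1, Nkx6-2, Pax6, Foxa2, Nkx2-2, Dbx2 and Dbx1. In 5 of the 6 neighbouring pairs of this order the replicate values did not overlap, and the exception was Dbx2 and Dbx1. No test was made between genes, since an exact permutation test of 3 paired replicates cannot go below p = 0.25. The labels do not say that the replicates came from separate cultures, so their spread may be technical. In bulk RNA, fewer cells of a type and less RNA per cell cannot be told apart.

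**Figure D1:**
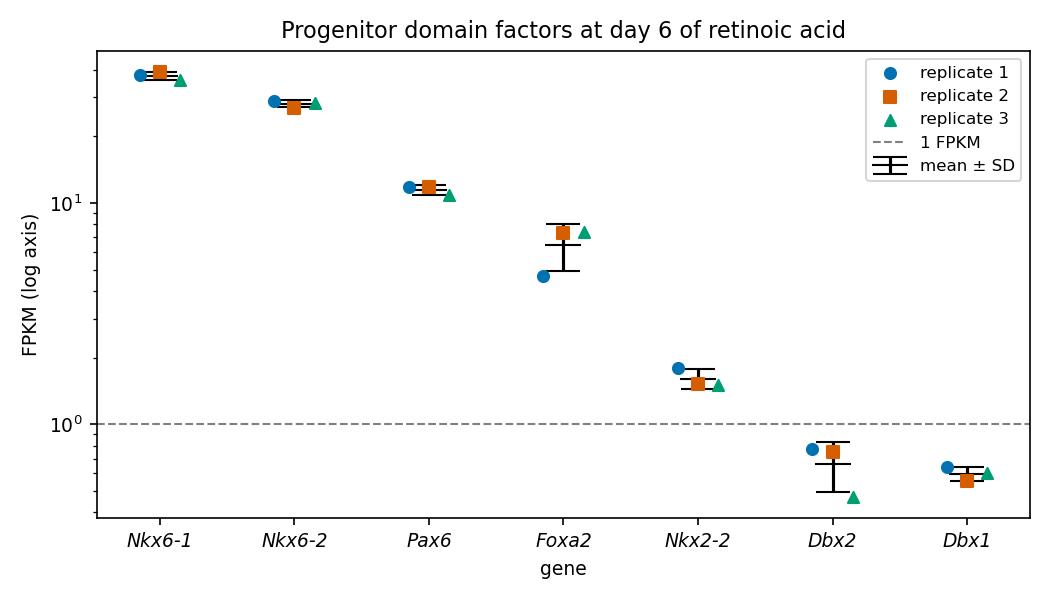
FPKM of each member (log axis) in each of the 3 RNA-seq replicates, with the mean and SD as bars and the 1 FPKM threshold as a dashed line. Genes are ordered by mean, Dbx2 and Dbx1 lie below the threshold in every replicate, and the replicate 1 point of Foxa2 lies below its other points.

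FPKM summed to between 477760 and 524717 over the genes in the 3 libraries, and read totals are unknown. From the spacing of low values, replicate 1 was estimated to be 1.56 times as deep as replicate 2 and 1.17 times as deep as replicate 3, so low levels rest on the fewest reads in replicate 2. All 10 general neural progenitor genes were expressed, with a median of 40.5 FPKM, as were all 9 neuronal genes, with a median of 109 FPKM. Extraembryonic endoderm genes were present too, 16 of 17 being expressed (94.1%, against 50.7% of all genes). Their median over all 17 was 7.09 FPKM, and most were lower in replicate 1.

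Nkx6-1 and Nkx6-2 were the most abundant members. Nkx6-1, a homeodomain repressor of the p2, pMN and p3 domains that is needed for motor neuron formation, stood at 37.8, 39.0 and 35.9 FPKM in replicates 1, 2 and 3 (37.5 ± 1.56; SD, n = 3). Nkx6-2, its paralogue, which in the mouse is best known from the p1 domain and later from oligodendrocytes, stood at 29.0, 27.0 and 28.2 FPKM (28.1 ± 1.02; SD, n = 3). Every replicate of Nkx6-1 lay above every replicate of Nkx6-2, and the ratio between them within a replicate was 1.30, 1.44 and 1.27. Of all genes, 93.2% had a lower mean than Nkx6-1 and 90.5% a lower mean than Nkx6-2. The other gene of this family, Nkx6-3, known from the gut and hindbrain, was listed at 0 in replicates 1 and 2 and at 0.0192 FPKM in replicate 3.

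The start regions of both abundant paralogues are shown because they share a GC-rich composition and differ in promoter letters. Both are the 250 bases before the RefSeq start on the minus strand of GRCm38.p6, at chr5:101664712-101664961 for Nkx6-1 and chr7:139582798-139583047 for Nkx6-2. Capitals mark matches, on either strand, to TATAAA (the TATA box), CCAAT (the CCAAT box) and TAAT (a core bound by many homeodomain proteins).
Nkx6-1: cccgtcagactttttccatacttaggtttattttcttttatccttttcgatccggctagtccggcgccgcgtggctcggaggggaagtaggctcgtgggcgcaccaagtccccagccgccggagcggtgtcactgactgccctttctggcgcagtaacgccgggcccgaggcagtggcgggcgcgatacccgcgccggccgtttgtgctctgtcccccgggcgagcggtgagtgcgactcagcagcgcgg
Nkx6-2: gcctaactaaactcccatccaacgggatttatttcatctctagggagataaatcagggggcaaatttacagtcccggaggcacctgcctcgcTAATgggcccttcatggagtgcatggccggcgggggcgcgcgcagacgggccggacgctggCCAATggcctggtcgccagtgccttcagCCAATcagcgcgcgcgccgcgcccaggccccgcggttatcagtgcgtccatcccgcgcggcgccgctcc
Each stretch has 65.2% G and C, against a median of 52.4% over 32851 RefSeq start regions of the same length. The ratio of observed to expected CpG was 1.13 for Nkx6-1 and 0.982 for Nkx6-2, against a median of 0.373. Nkx6-2 holds CCAAT at 97 to 93 and at 69 to 65 bases before the start and TAAT at 158 to 155 bases before it, and Nkx6-1 holds none of the 3 motifs. Among all start regions, 33.8% hold CCAAT, 54.9% TAAT and 12.4% TATAAA.

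Pax6, a paired and homeodomain factor of intermediate and ventral progenitors that is excluded from p3, was the third most abundant member. It stood at 11.8, 11.8 and 10.8 FPKM in replicates 1, 2 and 3 (11.5 ± 0.562; SD, n = 3), with 77% of all genes below it. The ratio of Nkx6-1 to Pax6 was 3.20, 3.30 and 3.31, with a mean of 3.27 ± 0.0607 (SD, n = 3). Pax6 also serves the eye and forebrain. Of the 7 genes of those tissues reported, 0 were expressed, against 50.7% of all genes. Six3 (0.0515 FPKM) and Otx2 (0.114 FPKM) had means near 0, and Rax was listed at 0 in replicates 2 and 3. The highest was Lhx2, at 1.03, 0.767 and 0.969 FPKM in replicates 1, 2 and 3. Pax6, Nkx6-1 and Nkx2-2 further serve the pancreas, where 1 of the 8 genes reported was expressed (12.5%, against 50.7% of all genes). That gene was Mafa (23.7 ± 2.54 FPKM; SD, n = 3), while the insulin genes Ins1 and Ins2 and the glucagon gene Gcg were listed at 0 in every replicate. Pdx1, which defines the pancreatic field, stood at 0.0935 FPKM in replicate 1 and was listed at 0 in the others.

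Nkx2-2 was low. The factor of the p3 domain, whose protein represses Pax6 at the border between pMN and p3, stood at 1.80, 1.52 and 1.50 FPKM in replicates 1, 2 and 3 (1.61 ± 0.169; SD, n = 3). All 3 values lay above the 1 FPKM threshold and below every value of Nkx6-1, Nkx6-2, Pax6 and Foxa2. Within a replicate Pax6 was 6.54, 7.76 and 7.20 times as high as Nkx2-2 (mean 7.17 ± 0.614; SD, n = 3), and Nkx6-1, whose domain contains that of Nkx2-2, was 20.9, 25.6 and 23.9 times as high (mean 23.5 ± 2.37; SD, n = 3). Of the other p3 and V3 genes, Nkx2-9, which shares the p3 domain with Nkx2-2, stood at 0.0321, 0.0502 and 0.0378 FPKM. Sim1, which marks V3 interneurons, stood at 0.0871, 0.0714 and 0.0537 FPKM, and Uncx, also known from V3 cells, at 1.78, 1.95 and 1.80 FPKM. Nkx2-2 and Uncx were thus at similar levels, while Nkx2-9 and the defining V3 gene Sim1 were near 0.

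Olig2, the factor of the pMN domain, which adjoins the Nkx2-2 domain dorsally, was far higher than Nkx2-2 at 33.5 ± 1.18 FPKM (SD, n = 3). Irx3, which adjoins Olig2 dorsally in p2 and above, stood at 20.4 ± 1.41 FPKM (SD, n = 3) and its relative Irx5 at 16.1 ± 0.982. Of the 17 other progenitor factors of the neural tube reported, 9 were expressed. That share of 52.9% is near the 50.7% of all genes, and the median over all 17 was 1.20 FPKM. Of those known from dorsal progenitors, Pax3 had a mean of 0.0317 FPKM, Pax7 of 0.0111 and Gsx2 of 0.0634, and Gsx1 was listed at 0 in every replicate. Msx1 (mean 1.10 FPKM) and Msx2 (0.912) were not expressed by the threshold but lay above Dbx1 and Dbx2. Neurog1, also among the 17, stood at 6.77 ± 0.481 FPKM (SD, n = 3). The motor neuron genes were all expressed, 7 of 7 (100%, against 50.7% of all genes), with a median of 17.6 FPKM. They ranged from Chat (8.62 ± 0.329) to Slc18a3 (61.5 ± 1.54; SD, n = 3).

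Dbx1 and Dbx2 were the lowest members and lay below the threshold in every replicate. Dbx1, the homeodomain factor that defines p0 and is needed for V0 interneurons, stood at 0.639, 0.554 and 0.605 FPKM in replicates 1, 2 and 3 (0.599 ± 0.0429; SD, n = 3). Dbx2, found in a wider domain around it and repressed ventrally by Nkx6-1, stood at 0.771, 0.751 and 0.472 FPKM (0.665 ± 0.167; SD, n = 3). These values overlapped, and the ratio of Dbx2 to Dbx1 was 1.21, 1.36 and 0.780, so neither was higher in all 3 replicates. Of all genes, 45.7% had a lower mean than Dbx2 and 45.1% a lower mean than Dbx1, and neither gene was listed at 0 in a replicate. Depth sets the precision at this level, and no counting interval can be given because read numbers are unknown.

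The start regions of this low pair are shown for comparison with the Nkx6 pair, again as the 250 bases before the RefSeq start on the minus strand of GRCm38.p6, at chr7:49636836-49637085 for Dbx1 and chr15:95654772-95655021 for Dbx2. Capitals mark the same 3 motifs.
Dbx1: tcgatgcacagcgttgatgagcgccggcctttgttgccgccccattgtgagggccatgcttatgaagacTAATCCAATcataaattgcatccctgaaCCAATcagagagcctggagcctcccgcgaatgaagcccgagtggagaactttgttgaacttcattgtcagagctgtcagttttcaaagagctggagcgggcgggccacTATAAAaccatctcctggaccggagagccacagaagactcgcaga
Dbx2: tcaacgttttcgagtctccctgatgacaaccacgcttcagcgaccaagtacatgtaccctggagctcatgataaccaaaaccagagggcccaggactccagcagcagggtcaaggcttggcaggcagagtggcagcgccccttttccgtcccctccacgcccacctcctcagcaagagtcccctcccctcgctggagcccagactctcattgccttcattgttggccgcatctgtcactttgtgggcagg
Dbx1 holds TATAAA at 45 to 40 bases before the start, CCAAT at 177 to 173 and at 153 to 149, and TAAT at 181 to 178, directly beside the first CCAAT and without overlap. Dbx2 holds none of the 3 motifs. G and C made up 52.8% of the Dbx1 stretch and 58.8% of the Dbx2 stretch, with observed to expected CpG ratios of 0.689 and 0.433. The 7 members have 10 RefSeq start regions between them, 2 of them for Pax6 and 3 for Foxa2. None of the 10 holds AGGTCA, the hexamer of retinoic acid receptors, or TGGGTGGTC, the Gli site of hedgehog signalling, on either strand, and among all start regions 14% and 0.225% do. These letters describe the windows and say nothing of binding.

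Most genes of the neurons that arise from the Dbx domains were higher than the Dbx genes themselves, and Evx2 overlapped with them. Evx1, which marks ventral V0 interneurons, stood at 2.44 ± 0.177 FPKM (SD, n = 3) and Evx2 at 0.684 ± 0.191. En1 and Foxd3, known from V1 interneurons, stood at 5.20 ± 0.511 and 13.05 ± 0.391 FPKM (SD, n = 3). Which cells made these RNAs was not tested. Of the 5 V0 genes 4 were expressed (80%) and of the 4 V1 genes all were (100%), against 50.7% of all genes. However, Lhx1, Lhx5 and Pax2 mark several interneuron classes, and Pax2 is on both lists. Of the 7 V2 genes reported, from the p2 domain where Nkx6-1 meets Irx3, 6 were expressed (85.7%, against 50.7% of all genes). The median over all 7 was 7.37 FPKM. Among the expressed V2 genes were the V2b genes Gata2 (6.90 ± 0.226), Gata3 (7.76 ± 0.0816) and Tal1 (7.07 ± 0.213; SD, n = 3). Vsx1 (0.488 ± 0.0492) was the V2 gene not expressed. Lhx3 (47.6 ± 1.68; SD, n = 3), the highest of the V2 list, is also on the motor neuron list.

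**Figure D2:**
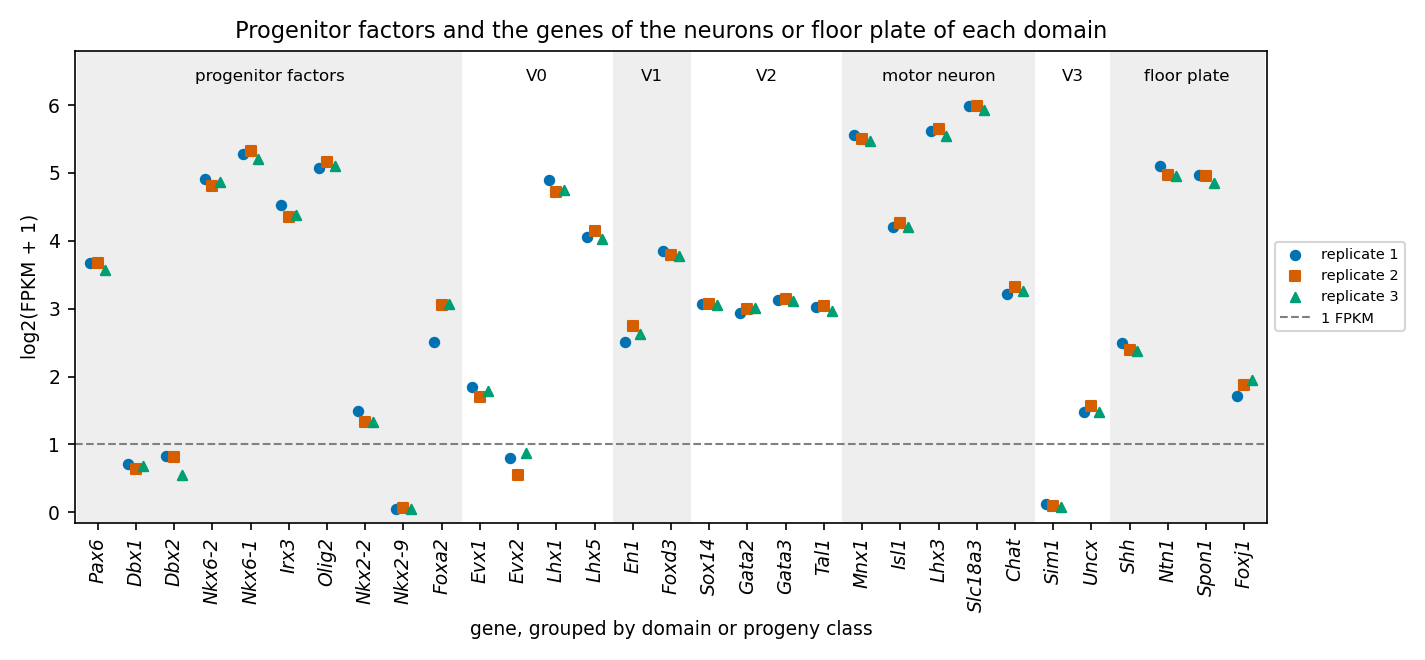
Level of progenitor factors and of genes of each progeny class in log2(FPKM + 1), with a point for each of the 3 RNA-seq replicates and the 1 FPKM threshold as a dashed line. Nkx6-1, Nkx6-2 and Olig2 are the highest progenitor factors drawn, while Dbx1, Dbx2, Nkx2-9, Sim1 and Evx2 lie below the threshold.

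Foxa2, the forkhead factor of the floor plate, notochord and endoderm, varied more between replicates than most members. Its SD was 23.8% of its mean and that of Dbx2 25.2%, against 3.64% to 10.5% for the others. It stood at 4.69, 7.33 and 7.38 FPKM in replicates 1, 2 and 3 (6.47 ± 1.54; SD, n = 3), with 67.1% of all genes below it. Replicate 1 lay apart from the other 2 values, and without it the mean was 7.36 FPKM. On the log2(FPKM + 1) scale Foxa2 deviated from its own mean by -0.37, 0.18 and 0.19 in the 3 replicates. Among the 12432 genes whose mean reached 1 FPKM, 0.804% had a lower deviation in replicate 1.

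Of the 7 members, Foxa2 was the only one lowest in replicate 1. Of those 12432 genes, 36.5% shared this order of replicates, and 2.31% shared it and were also at least 0.25 (log2) below their own mean in replicate 1, as Foxa2 was. The cut of 0.25, also used for the lists below, was not planned beforehand, and no other cut was tried. In replicate 1 the other members deviated by 0.04 (Pax6), 0.01 (Nkx6-1), 0.05 (Nkx6-2), 0.11 (Nkx2-2), 0.04 (Dbx1) and 0.09 (Dbx2). Dbx2 deviated most in replicate 3, by -0.17.

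Most extraembryonic endoderm genes, and most expressed genes of the definitive endoderm list, were lowest in replicate 1 as Foxa2 was. The median of the other floor plate genes was not lower there. Of 16 extraembryonic endoderm genes whose mean reached 1 FPKM, 15 were lowest in replicate 1 and 10 were also at least 0.25 below their own mean there. The list median deviated by -0.27, 0.14 and 0.13 in replicates 1, 2 and 3. Of 9 definitive endoderm genes, 5 were expressed (55.6%, against 50.7% of all genes). Of these 5, 4 were lowest in replicate 1 and 3 also lay at least 0.25 below their own mean there. The exception was Cxcr4, at 48.7, 49.1 and 48.4 FPKM in replicates 1, 2 and 3. Gsc (mean 0.179 FPKM), Hhex (0.297) and Foxa1 (0.996) were not expressed, and Cer1 was listed at 0 in every replicate. The median of the 5 expressed genes deviated by -0.33, 0.14 and 0.19, and Sox17 is on both endoderm lists. For the 4 floor plate genes with such a mean, without Foxa2, the median deviated by 0.06, 0.00 and -0.05. These were Shh, Ntn1, Spon1 and Foxj1, of which Foxj1 was lowest in replicate 1. Corin, Ferd3l and Lmx1a did not reach that mean. Which cells made these RNAs was not tested, so the median need not follow floor plate cells. The medians in replicate 1 were 0.02 for neural progenitor genes, 0.01 for motor neuron genes and 0.06 for neuronal genes.

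By level over the 3 replicates, the genes most like Foxa2 among 135 genes of the lists were the endoderm factors Gata6 and Sox17. Likeness was the largest absolute difference in log2(FPKM + 1) over the replicates, which was 0.17 for Gata6, 0.19 for Sox17 and 0.38 for the next gene, Sufu. Within replicates 1, 2 and 3 the ratio of Foxa2 to Gata6 was 0.871, 0.894 and 0.960, and that of Foxa2 to Sox17 was 0.858, 0.921 and 0.896. The ratio of Foxa2 to Gata4, another endoderm factor, was 0.446, 0.470 and 0.441, whereas that of Foxa2 to Shh, the hedgehog ligand that the floor plate secretes, was 1.02, 1.72 and 1.76. These pairs were chosen after their values were seen. The ratio of Foxa2 to Foxa3, also of endoderm, was 4.10, 4.71 and 3.98, and that of Foxa2 to Foxa1, also on the endoderm lists, was 5.29, 7.08 and 6.92. The ratios to Shh, Foxa1, Gata6 and Sox17 were lowest in replicate 1, by a smaller step for Gata6 and Sox17, and those to Gata4 and Foxa3 were not. Gata6 and Sox17 had been picked for their likeness to Foxa2, so their even ratios follow in part from that choice.

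**Figure D3:**
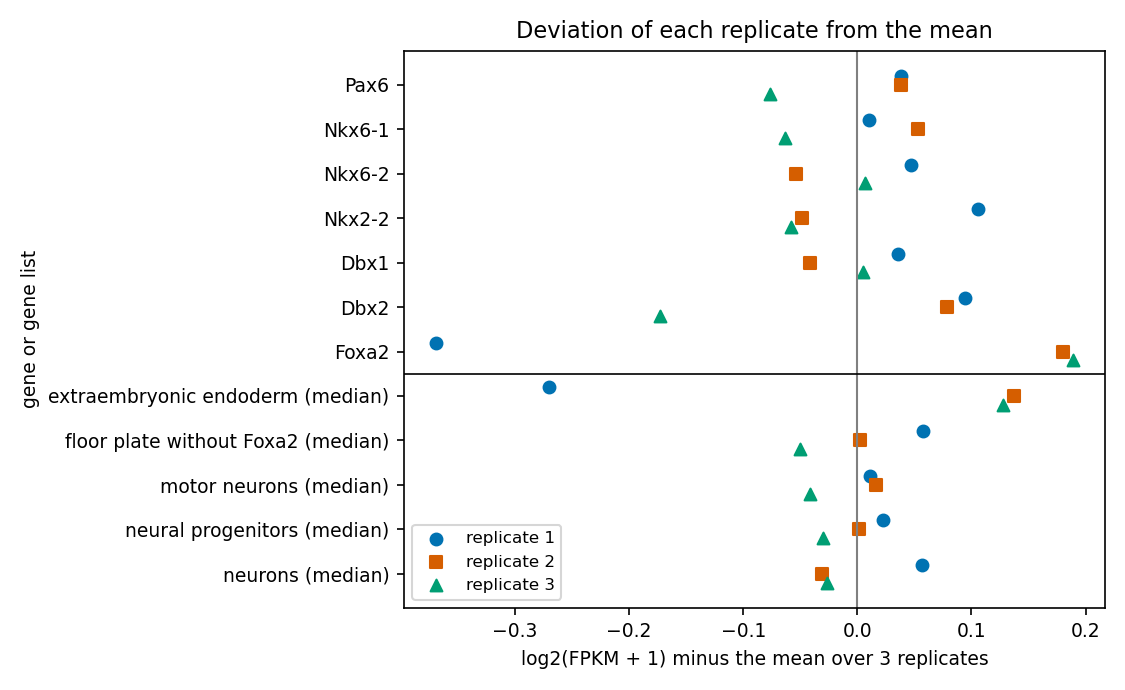
Deviation of each replicate from the mean over 3 replicates in log2(FPKM + 1), for each member (above the line) and as the median of gene lists (below it, over genes whose mean reached 1 FPKM). Foxa2 and the extraembryonic endoderm median are low in replicate 1, at -0.37 and -0.27, while the floor plate median without Foxa2 is at 0.06.

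Of the floor plate genes other than Foxa2, 4 of the 7 reported were expressed (57.1%, against 50.7% of all genes). The median over all 7 was 2.61 FPKM. Shh stood at 4.61, 4.26 and 4.18 FPKM in replicates 1, 2 and 3, the guidance ligand gene Ntn1 at 31.2 ± 1.85 and the secreted adhesion gene Spon1 at 29.3 ± 1.35 (SD, n = 3). Foxj1, a regulator of motile cilia that the floor plate shares with other ciliated cells, was at 2.28, 2.68 and 2.87 FPKM and so, like Foxa2, lowest in replicate 1. Corin (0.125 ± 0.0324), Ferd3l (0.596 ± 0.277) and Lmx1a (0.202 ± 0.0502; SD, n = 3) were below the threshold. Of 4 notochord genes other than Foxa2, T and Noto were listed at 0 in every replicate, while Shh and Chrd (3.11 ± 0.331 FPKM; SD, n = 3) were expressed. The related forkhead genes Foxa1 and Foxa3, both also endodermal, stood at 0.886, 1.04 and 1.07 FPKM and at 1.14, 1.56 and 1.86 FPKM, and each was lowest in replicate 1. Of 7 further genes of the members' families, Foxa3 was the 1 expressed (14.3%, against 50.7% of all genes). The share of Foxa2 RNA from endoderm and from floor plate cells was not tested.

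Genes of the hedgehog pathway, the upstream input of these domains, had a median of 2.06 FPKM over all 14. Of the 14, 10 were expressed (71.4%, against 50.7% of all genes). Ptch1, the receptor and a direct target, stood at 16.7 ± 1.24 FPKM (SD, n = 3), the signal transducer Smo at 11.7 ± 0.216 and the coreceptor Gas1 at 16.6 ± 0.545. The targets Gli1 (0.855 ± 0.0747) and Hhip (0.500 ± 0.0495; SD, n = 3) were below the threshold, so the direct targets were at unlike levels.

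The genes nearest in level to the other members, by the same measure, came from several lists. Nearest to Nkx6-1 were Nes (largest difference 0.15), Sox21 and Sox3, to Nkx6-2 Lhx1 (0.12), Spon1 and Ntn1, and to Pax6 Tle1 (0.04), Smo and Foxd3. Nearest to Nkx2-2 were Boc (0.11), Foxn4 and Gli2, to Dbx1 Gli3 (0.02), Hhip and Vsx1, and to Dbx2 Gli3 (0.19), Scube2 and Vsx1. With 3 replicates of 1 condition, likeness is one of level only.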

How the data were processed

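Polyadenylated RNA of 3 samples was sequenced, per the labels' protocols. The table deposited by the authors has no unit in its header. Its values were taken as FPKM because the submitters' processing notes name Cufflinks, with Bowtie and the build mm9. For versions, settings, strand use and any scaling between libraries, the sources used here give nothing. The ATAC-seq regions are in that build, for which no annotation was used, so they were not placed at the genes.

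Means, SDs, ratios within replicates and log2(FPKM + 1) were computed with pandas 2.3.3 (Python 3.11.15). The threshold for an expressed gene was 1 FPKM in each of the 3 replicates. Relative depth was the most common ratio of values between 0.001 and 0.1 FPKM, taken as equal read numbers. On simulated reads for 24002 genes a ratio of 1.5 was recovered as 1.5. The simulation gave each gene the same length in both libraries, as the method assumes. It therefore checks the computation and not whether that assumption holds for the deposited values. Named genes were the members, genes of the lists and the 3 genes nearest in level to each member. Members were left out of the lists, and some genes are on several lists. A few list genes are not reported here and enter no list count or median. The members and lists were chosen with earlier results of these data known. Start regions are RefSeq sequences of GRCm38.p6, matched by symbol for all 7 members.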

Additional observations from a re-analysis of the deposited data

How the results depend on the processing

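Thresholds of 0.5 and 5 FPKM, upper quartile and median ratio scaling, pseudocounts, and leaving out each replicate were tried. At 5 FPKM, 3 members were expressed, as were 0 V3, 2 floor plate, 4 hedgehog, 9 extraembryonic endoderm, 0 notochord and 0 paralogue genes of the members' families. At 0.5 FPKM 6 members were expressed, Dbx1 being added, as were 2 paralogues and 1 of the eye and forebrain genes reported. The shares of all genes at 0.5 and 5 FPKM were not counted, so these counts have nothing to be set against. Leaving out a replicate gave 1 to 2 expressed paralogues, with 2 without replicate 1, against 1 with all replicates. Among genes above 0 in a replicate, 66% were expressed. A pseudocount of 1 gave ratios of 14.8 for Nkx6-1 over Nkx2-2, 4.79 for Pax6 over Nkx2-2 and 3.09 for Nkx6-1 over Pax6, and one of 0.1 a deviation of 0.0818 for Dbx1 in replicate 1. By construction a pseudocount draws a ratio towards 1. The other 210 values moved by less than the spread between replicates or, for counts, stayed within 1.5 times. Leaving out a replicate cannot move a mean level or mean ratio by its spread over 3 replicates. Those of the 210 values were therefore fixed in advance and say nothing of stability. Without replicate 2, Dbx1 stood above Dbx2. No paired analysis was possible because the replicate numbers shared by RNA-seq and ATAC-seq samples join no compared groups. Unknown read numbers limit Dbx1, Dbx2 and Nkx2-2 most.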

Other observations

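Repressor proteins of the progenitor domains are known to recruit Groucho corepressors. Of these 5 corepressor genes, 4 were expressed (80%, against 50.7% of all genes). Tle3 stood at 49.7 ± 1.27 FPKM (SD, n = 3), above every member, Tle4 at 13.4 ± 0.455, Tle1 at 11.3 ± 0.456 and Tle2 at 3.00 ± 0.394, while Tle6 stood at 0.299 ± 0.0582.

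Nkx6-2 and Nkx2-2 are also known from the oligodendrocyte lineage. Of the 8 genes reported of this lineage, 6 were expressed (75%, against 50.7% of all genes). The median over all 8 was 18.05 FPKM. Mbp stood at 20.5 ± 1.34 and Sox10 at 21.1 ± 1.21 FPKM (SD, n = 3). Mog (0.867 ± 0.160) and Mag (0.0742 ± 0.0242), which belong to mature myelin, were not expressed by the threshold. Olig2, also on this list, is the pMN factor described above, and whether cells of this lineage were present was not tested. Pdgfra, known from oligodendrocyte precursors and also from endoderm, stood at 7.79, 11.4 and 11.7 FPKM in replicates 1, 2 and 3, lowest in replicate 1 as Foxa2 was. Of the 6 expressed genes of this list, 5 were lowest in replicate 1, against 36.5% of the 12432 genes whose mean reached 1 FPKM. The list median deviation there was only -0.06 (log2). Lowest there and at least 0.25 below its own mean was 1 of the 6, against 2.31% of those 12432 genes.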
